A study of Mus musculus with 6 samples.

Results

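The calcium pumps and sodium-calcium exchangers are the proteins that carry calcium out of the cytosol, and 10 of their genes were followed here among the 52513 genes of the table. They comprised 4 plasma membrane pumps (Atp2b1 to Atp2b4), 3 pumps of the endoplasmic reticulum, or ER (Atp2a1 to Atp2a3), and 3 exchangers (Slc8a1 to Slc8a3), each found once by its symbol. The genes were chosen by family, and with the morphine against saline values of the same table already known, above all the low Atp2b3 values after morphine. Those values are therefore given as a description, and the fold changes and calls of the 10 genes support nothing by themselves.

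The tissue was spinal cord from the L4 and L5 segments of wild-type (WT) mice. Of the 6 libraries, 3 came from mice given intrathecal morphine (10 µg in 10 µL) and 3 from mice given intrathecal saline, both for 7 days. No other genotype, agent or time point was part of the design. The sample descriptions name each library by a run of 2 or 3 numbers, and the labels do not say whether these are pooled animals or separate ones, so p-values measure only the spread between these samples, which may be technical.

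A resting cell keeps its cytosolic calcium far below that outside, and pumps and exchangers restore this gradient after every signal. Plasma membrane pumps spend ATP to push calcium out with high affinity, ER pumps spend ATP to load the internal store, and the exchangers use the inward sodium gradient to move calcium out with high capacity. In the dorsal horn and in motor neurons these routes set how long a calcium signal lasts after a burst of activity.

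All 7 pumps are P-type ATPases, which pass the phosphate of ATP through an aspartate of their own chain. The coding sequence around this residue is shown for 5 of the pumps because the plasma membrane and ER pumps share this site, and because it shows how far the genes differ in bases where they encode the same 5 residues. Capitals mark the 5 codons for aspartate, lysine, threonine, glycine and threonine, in 51 bases of the transcript with the longest coding sequence in GENCODE M21 on mm10, 5′ to 3′ on the coding strand.
Atp2b1: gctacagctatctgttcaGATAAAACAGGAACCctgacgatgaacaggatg
Atp2b2: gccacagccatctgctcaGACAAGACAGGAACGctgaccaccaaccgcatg
Atp2b4: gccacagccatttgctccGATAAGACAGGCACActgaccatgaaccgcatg
Atp2a1: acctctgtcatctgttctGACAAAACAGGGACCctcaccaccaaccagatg
Atp2a3: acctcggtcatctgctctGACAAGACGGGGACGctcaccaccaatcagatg

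Each window lies within 1 exon, at chr10:98999799-98999849 on the plus strand for Atp2b1, chr6:113789885-113789935 on the minus strand for Atp2b2 and chr1:133731795-133731845 on the minus strand for Atp2b4. That of Atp2a1 is at chr7:126456389-126456439 on the minus strand, and that of Atp2a3 is at chr11:72975588-72975638 on the plus strand. Over whole transcripts, the longest identical run between 2 genes of a family was 56 nt (Atp2b2 and Atp2b3), shorter than the fragments, whose mean length was estimated at 216 to 221 nt.

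The table gives FPKM, which divides the fragments of a gene by its length and by the size of the library, so levels can be compared between genes. The depth, estimated from the steps of low FPKM values, was 17.9 to 19.9 M fragments in morphine and 21.2 to 26.1 M in saline. Neuronal, glial and myelin transcripts were high in all 6 libraries of this labelled spinal cord. Snap25, a synaptic fusion protein, was at 1643 ± 115 FPKM in morphine and 1618 ± 158 in saline (SD, n = 3 each). Markers of motor and cholinergic neurons separated the libraries within each group. Their mean on the log2(FPKM + 1) scale was 2.75, 3.85 and 2.03 in morphine libraries 1, 2 and 3, against 3.91, 3.83 and 2.36 in saline libraries 1, 2 and 3. Morphine 2, saline 1 and saline 2 therefore held more RNA of these neurons than the other 3 libraries, and in bulk tissue fewer cells and less RNA per cell cannot be told apart.

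In this cord the ER pump Atp2a2 was the most abundant of the 10 transcripts, followed by the plasma membrane pumps Atp2b2 and Atp2b1, in both groups. In saline the order went on with Slc8a3, Atp2b3, Atp2b4, Slc8a2, Slc8a1, Atp2a3 and Atp2a1, and the library ranges of neighbours overlapped for Slc8a3 with Atp2b3 and for Atp2b3 with Atp2b4. In morphine Atp2b3 stood below Slc8a2 instead of above Atp2b4, and its range of 4.53 to 5.97 FPKM overlapped that of Slc8a2, at 4.16 to 6.53 FPKM. Slc8a3 and Atp2b4 were the other neighbours whose ranges overlapped in morphine.

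**Figure D1:**
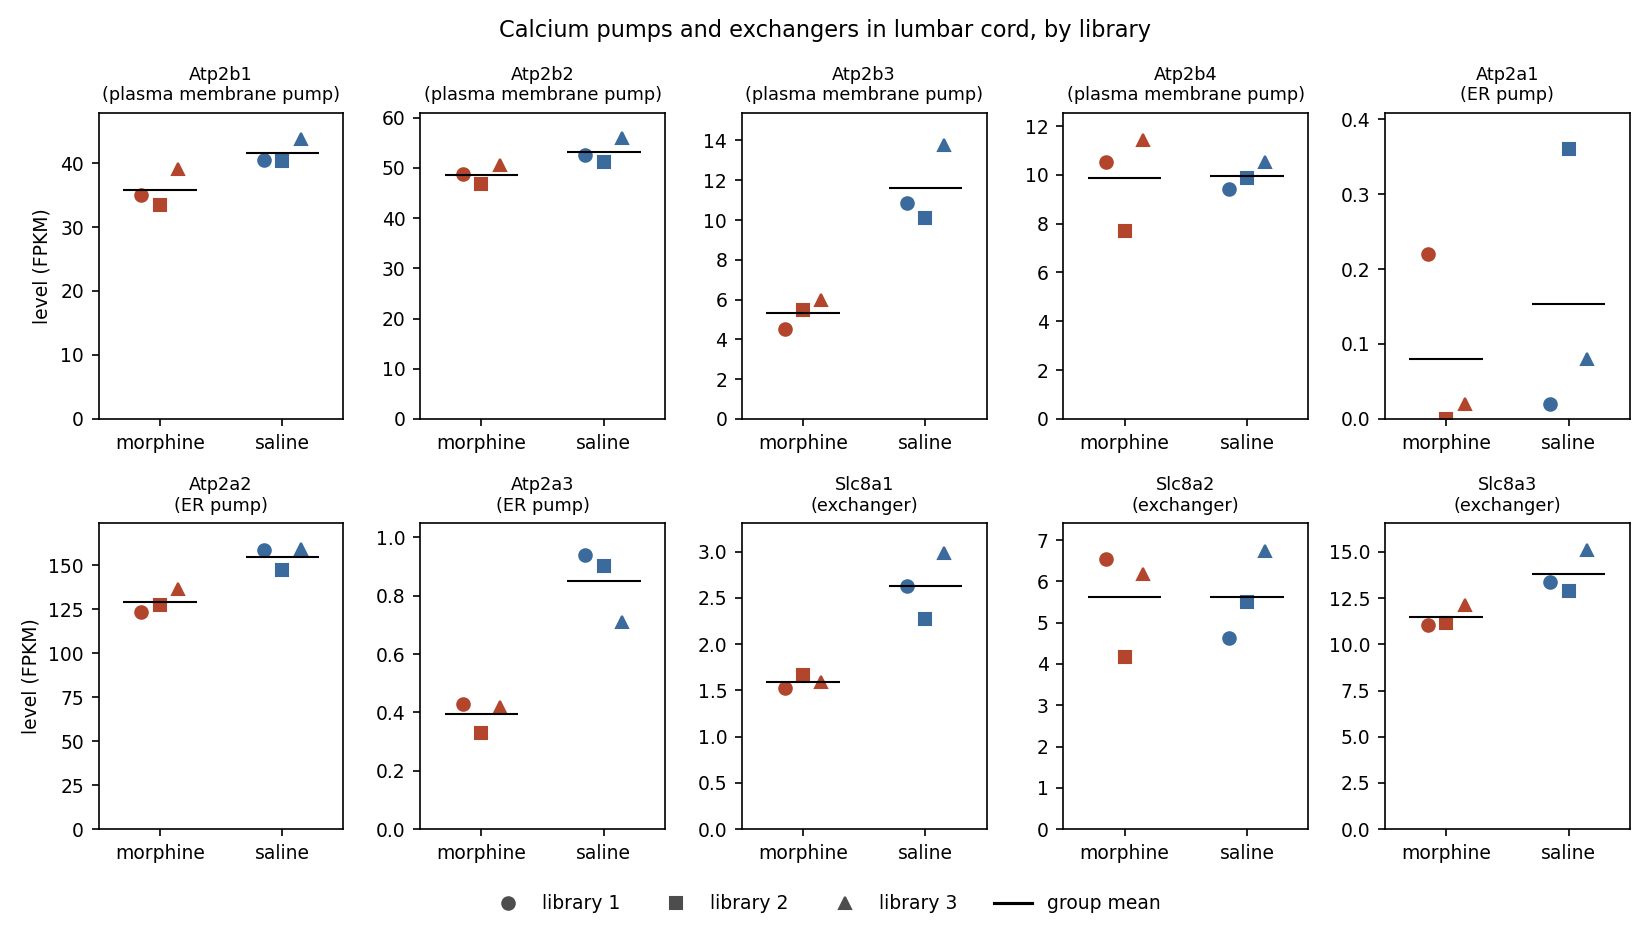
Levels of the 10 genes in FPKM on linear axes that start at 0, with morphine left of saline, 1 point per library (circle, square and triangle for libraries 1, 2 and 3) and a line at the group mean. The 3 morphine values of Atp2b3 lie between 4.53 and 5.97 FPKM, below the 3 saline values, while those of Atp2b4 and Slc8a2 lie among the saline values.

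Atp2b3, a plasma membrane pump found mainly in neurons, showed the widest separation of the groups. It was at 4.53, 5.49 and 5.97 FPKM in morphine libraries 1, 2 and 3, against 10.9, 10.1 and 13.8 FPKM in saline libraries 1, 2 and 3. Every morphine library was below every saline library. The means were 5.33 ± 0.733 FPKM in morphine and 11.6 ± 1.94 FPKM in saline (SD, n = 3 each), a ratio of 0.46. The log2 fold change was -0.99 (SE 0.14, 95% interval -1.31 to -0.67). Only 0.315% of the tested genes had a lower one. The gene (ENSMUSG00000031376, chrX:73503086-73571005, plus strand) has 3 annotated transcripts, all coding, and no annotated gene overlaps it. In both groups the library with the lowest motor neuron marker mean had the highest Atp2b3, morphine 3 at 5.97 FPKM and saline 3 at 13.8 FPKM. The same held for Atp2b1, Atp2b2, Atp2b4, Atp2a2 and Slc8a3, so it was not particular to Atp2b3. Within morphine, library 2 had the highest marker mean, and it held more Atp2b3 (5.49 FPKM) than library 1 (4.53 FPKM). The part of motor neurons in the Atp2b3 values was not tested beyond the fit with the markers as a covariate, which is given with the other settings.

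Atp2b2, the fast pump that auditory hair cells and cerebellar Purkinje cells rely on, was the most abundant plasma membrane pump. Its levels were 48.8, 46.8 and 50.5 FPKM in morphine, against 52.6, 51.1 and 56.0 FPKM in saline. The groups did not overlap, but the nearest libraries of the 2 groups were less than 1 FPKM apart. Its log2 fold change was -0.13 (SE 0.06), with an interval from -0.27 to 0.02.

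Atp2b1, the housekeeping pump made by nearly all cells, was at 34.99, 33.5 and 39.2 FPKM in morphine, against 40.5, 40.4 and 43.8 FPKM in saline. Again no morphine library reached a saline one, and the log2 fold change was -0.21 (SE 0.08). Atp2b4, the other widely expressed pump, was at 10.5, 7.68 and 11.4 FPKM in morphine, against 9.44, 9.87 and 10.5 FPKM in saline. Its groups overlapped fully, with means of 9.88 ± 1.96 and 9.94 ± 0.544 FPKM (SD, n = 3 each) in morphine and saline. The 3 libraries rich in motor neuron markers (7.68, 9.44 and 9.87 FPKM) held less Atp2b4 than the other 3 libraries. Such a split was not counted over all tested genes. Whether the markers account for the lower Atp2b4 was not tested beyond the fit with the markers as a covariate. In that fit the log2 fold change of Atp2b4, morphine over saline, was -0.12 (SE 0.09), against -0.02 (SE 0.14) without the covariate, and it was called in neither.

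Together the 4 plasma membrane pumps came to 98.9, 93.4 and 107 FPKM in morphine, against 113, 112 and 124 FPKM in saline. The sums did not overlap, and their ratio was 0.858. Within this sum the shares do not depend on how the libraries are scaled. Atp2b3 made up 4.58%, 5.88% and 5.58% in morphine libraries 1, 2 and 3, against 9.59%, 9.07% and 11.1% in saline libraries 1, 2 and 3. This was 4.58 percentage points less after morphine (5.35 ± 0.678% and 9.92 ± 1.06%, SD, n = 3 each).

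The Atp2b2 share was larger instead, at 48.9 ± 1.5% in morphine and 45.8 ± 0.644% in saline (SD, n = 3 each), without overlap. Atp2b1 held 35.9 ± 0.593% in morphine and 35.7 ± 0.472% in saline, and Atp2b4 held 9.85 ± 1.41% and 8.55 ± 0.272% (SD, n = 3 each), both with overlapping libraries. Of the 4 shares, those of the 2 neuronal isoforms, Atp2b2 and Atp2b3, were the ones that separated the groups. In another weighting each FPKM was multiplied by the exonic length of the gene, merged over all its annotated transcripts. This length can exceed that of any transcript (15218 nt for Atp2b1, whose longest transcript has 7130 nt), so the weighted shares are not shares of fragments. With this weighting the Atp2b3 share was 1.79 percentage points less after morphine and still without overlap. The Atp2b2 share was then 1.73 points more, against 3.08 points unweighted, and its groups overlapped, and the Atp2b1 share was 0.931 points less, with overlapping groups.

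**Figure D2:**
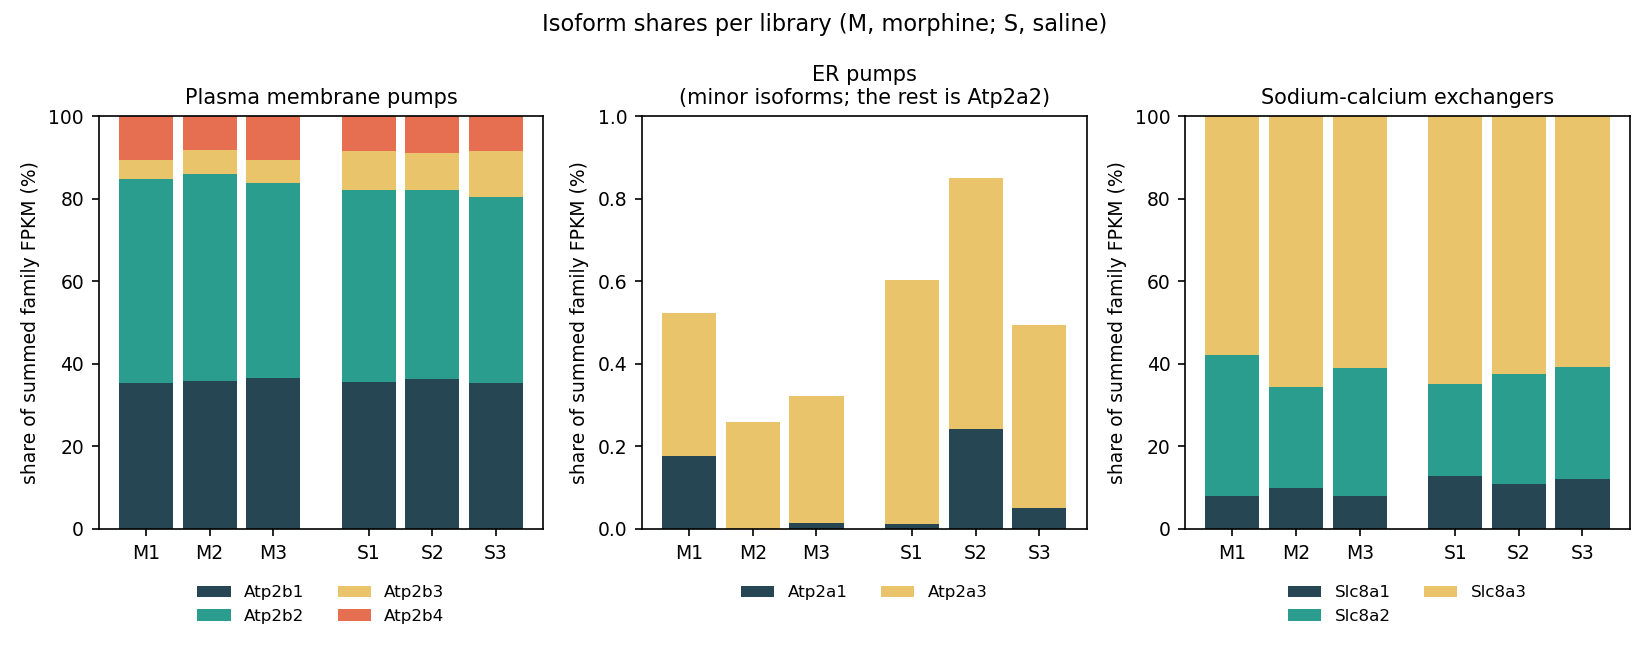
Share of each isoform in the summed FPKM of its family, in percent, for morphine libraries 1 to 3 (M1 to M3) and saline libraries 1 to 3 (S1 to S3). The ER panel has its own axis up to 1% and leaves out Atp2a2, which makes up the rest. The Atp2b3 band is 4.58% to 5.88% of the plasma membrane pumps in morphine and 9.07% to 11.1% in saline.

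Atp2a2 (SERCA2), whose common splice form fills the ER of nearly all cells, supplied nearly all ER pump RNA. It was at 123, 127 and 136 FPKM in morphine, against 158, 147 and 159 FPKM in saline. All morphine libraries were below all saline libraries, with means of 129 ± 6.53 and 155 ± 6.71 FPKM (SD, n = 3 each) in morphine and saline. The log2 fold change was -0.26 (SE 0.06, 95% interval -0.40 to -0.12). Its share of the ER pumps was 99.5%, 99.7% and 99.7% in morphine and 99.4%, 99.2% and 99.5% in saline, with overlapping groups. With FPKM weighted by exonic length its shares no longer overlapped, from 99.597% to 99.776% in morphine and from 99.333% to 99.585% in saline.

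Atp2a3 (SERCA3), an ER pump of blood cells, endothelium and some neurons, was present at a low level. It was at 0.43, 0.33 and 0.42 FPKM in morphine, against 0.94, 0.90 and 0.71 FPKM in saline, about 38, 26 and 34 fragments against 88, 103 and 66. The values did not overlap, and the ratio of means was 0.463. On the log2(FPKM + 1) scale the fold change was -0.41 (SE 0.09), which understates a change at so low a level. Its share of the ER pumps was 0.304 ± 0.0443% in morphine and 0.547 ± 0.0895% in saline (SD, n = 3 each). Fragment numbers are estimates from the longest transcript, and their 95% Poisson intervals, from 17.0 to 38.1 fragments in morphine 2 and from 84.1 to 124.9 in saline 2, cover counting error alone.

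Blood cells, platelets and endothelium are known to carry Atp2a3, so their markers are given beside it. The summed markers of blood cells and platelets ranged from 426 to 601 FPKM in morphine, against 762 to 1082 FPKM in saline, a sum made up almost wholly of globin RNA. Of its 7 tested members 6 had a negative fold change, where 53.1% of all tested genes had one. An unadjusted p under 0.05 was found for 5, with Itga2b, which was higher, among them, and for 22.3% of all tested genes. One member was called lower, where 0.561% of all tested genes were. This was the beta-globin Hbb-bt, at 27.9 ± 4.24 FPKM in morphine and 65.9 ± 14.7 FPKM in saline (SD, n = 3 each; limma adjusted p = 0.0453). The globins Hba-a1 and Hbb-bs were also lower in every morphine library than in any saline library (limma adjusted p = 0.0574 and 0.0611). The platelet integrin Itga2b lay the other way, at 1.98, 1.65 and 3.29 FPKM in morphine, against 1.14, 1.44 and 1.20 FPKM in saline (log2 fold change 0.52; limma adjusted p = 0.165), and its groups did not overlap. Pf4, another platelet marker, was lower in every morphine library than in any saline library (log2 fold change -0.25, limma adjusted p = 0.226). It was at 1.71, 1.98 and 1.49 FPKM in morphine, against 2.40, 2.15 and 2.17 FPKM in saline. Alas2, the heme synthesis enzyme of red cells, overlapped. Ptprc, the pan-leukocyte CD45, was under 1 FPKM in all libraries. The markers of endothelium and mural cells summed to 81.0 to 104 FPKM in morphine and 106 to 115 FPKM in saline. Of these, 7 of 8 tested members had a negative fold change and 0 passed limma's adjusted threshold (6 had an unadjusted p under 0.05, beside the 22.3% of all tested genes). Cldn5, the tight junction protein of brain endothelium, was the exception in sign, with overlapping groups. The part of these cells in the Atp2a3 values was not tested.

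Atp2a1 (SERCA1), the pump of fast skeletal muscle, was listed at 0.22, 0 and 0.02 FPKM in morphine, against 0.02, 0.36 and 0.08 FPKM in saline. This is about 14, 0 and 1 fragments against 1, 31 and 6, and the groups overlapped. Exons of Rabep2 on the opposite strand overlap it, and no source used here says if the counting took strand into account. The markers of skeletal muscle were low as well, summing to 12.2 to 14.0 FPKM in morphine and 9.45 to 11.2 FPKM in saline. The 3 tested members, Mylpf, Casq1 and Acta1, did not pass. Myh4, the fast myosin, was at 0.13 FPKM or less, and heart markers summed to 2.51 FPKM or less with Myl7 listed at 0 in all 6 libraries.

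Among the exchangers, Slc8a3 (NCX3), an exchanger of brain and skeletal muscle, was the most abundant. It was at 11.1, 11.2 and 12.1 FPKM in morphine, against 13.4, 12.9 and 15.1 FPKM in saline, and every morphine library was below every saline library. The log2 fold change was -0.25 (SE 0.08, 95% interval -0.44 to -0.05).

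Slc8a1 (NCX1), the exchanger of heart muscle that neurons and glia also make, was the lowest of the 3. It was at 1.53, 1.67 and 1.59 FPKM in morphine, against 2.63, 2.27 and 2.99 FPKM in saline. The groups did not overlap, and the morphine libraries lay close together, at 1.60 ± 0.0702 FPKM against 2.63 ± 0.360 FPKM in saline (SD, n = 3 each). With a ratio of means of 0.607 and a log2 fold change of -0.48 (SE 0.11), it ranked after Atp2b3 among the tested members. Only 2.2% of all tested genes had a lower fold change. Low FPKM need not mean few reads here. With the longest transcript, of 18464 nt, the estimate was 539 to 555 fragments in morphine and 1029 to 1159 in saline. A shorter transcript would give fewer, and which of the 6 annotated transcripts was present was not determined. Exons of Gm11096 and AC122399.1 on the opposite strand overlap the gene.

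Slc8a2 (NCX2), a neuronal exchanger, was at 6.53, 4.16 and 6.18 FPKM in morphine, against 4.62, 5.51 and 6.73 FPKM in saline. Its groups overlapped, with equal means of 5.62 ± 1.28 and 5.62 ± 1.06 FPKM (SD, n = 3 each) in morphine and saline. As with Atp2b4, the libraries rich in motor neuron markers were lower, and the other members showed no such split. The share of all tested genes with this split was not counted, so nothing is read from it. The 3 libraries rich in motor neuron markers held 4.16, 4.62 and 5.51 FPKM, below the 6.18 to 6.73 FPKM of the other 3. Both sets hold libraries of both treatments. Whether the markers account for the difference was not tested beyond the fit with the markers as a covariate. In that fit the log2 fold change of Slc8a2, morphine over saline, was -0.13 (SE 0.11), against -0.0066 (SE 0.18) without the covariate, and it was called in neither. The exchangers summed to 19.1, 17.0 and 19.9 FPKM in morphine, against 20.6, 20.7 and 24.8 FPKM in saline. Within the sum, Slc8a1 made up 8.60 ± 1.06% in morphine and 11.9 ± 0.889% in saline (SD, n = 3 each), without overlap, and the difference of -3.31 percentage points was -7.40 with FPKM weighted by exonic length. Slc8a2 held 29.9 ± 4.94% and 25.4 ± 2.60%, and Slc8a3 held 61.5 ± 3.96% and 62.7 ± 2.02% (SD, n = 3 each, morphine and saline), and both overlapped. The Slc8a3 difference of -1.20 points was 2.34 points with that weighting, again with overlap, and 0.633 points without morphine 1. The Slc8a2 difference of 4.51 points was 2.38 points without morphine 1 and 7.22 points without morphine 2.

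Across all genes, limma was fitted to log2(FPKM + 1) for the 14614 genes that reached 1 FPKM in 3 or more libraries. Of the 10 members 8 met this level and Atp2a1 and Atp2a3 did not. One tested member, Atp2b3, was called lower at an adjusted p under 0.05, where 1.51% of tested genes were called in either direction and 0.561% were called lower. Neither of the 2 members under the level was called in the fit without it, where 0.0857% of all genes were. The values of 6 of the 8 tested members were lower in all morphine libraries than in any saline library (Atp2b1, Atp2b2, Atp2b3, Atp2a2, Slc8a1 and Slc8a3). This pattern was found in 15.7% of tested genes, and the opposite one in 13.0%. Nothing is read from these counts, since the genes were chosen with this comparison known.

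The median log2 fold change of the 8 tested members was -0.23, beside -0.02 for all tested genes. Fold changes became more negative with exonic length over the table (Spearman's rho of -0.31 over 14588 genes; genes are not independent replicates), and the members are long, from 3477 to 18807 nt of exonic sequence. The trend at the lengths of the members ran from -0.0057 to -0.086, and their median with the trend removed was -0.16. The fold change of Atp2b3 was then -0.95 and that of Slc8a1 -0.40, and no member was called. The split of all calls, 138 higher and 82 lower, was 47 and 55 after quantile normalization and 101 and 853 after rescaling of the columns to equal totals (TPM), which moves the median of all genes to -0.13 and that of the members to -0.36.

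**Figure D3:**
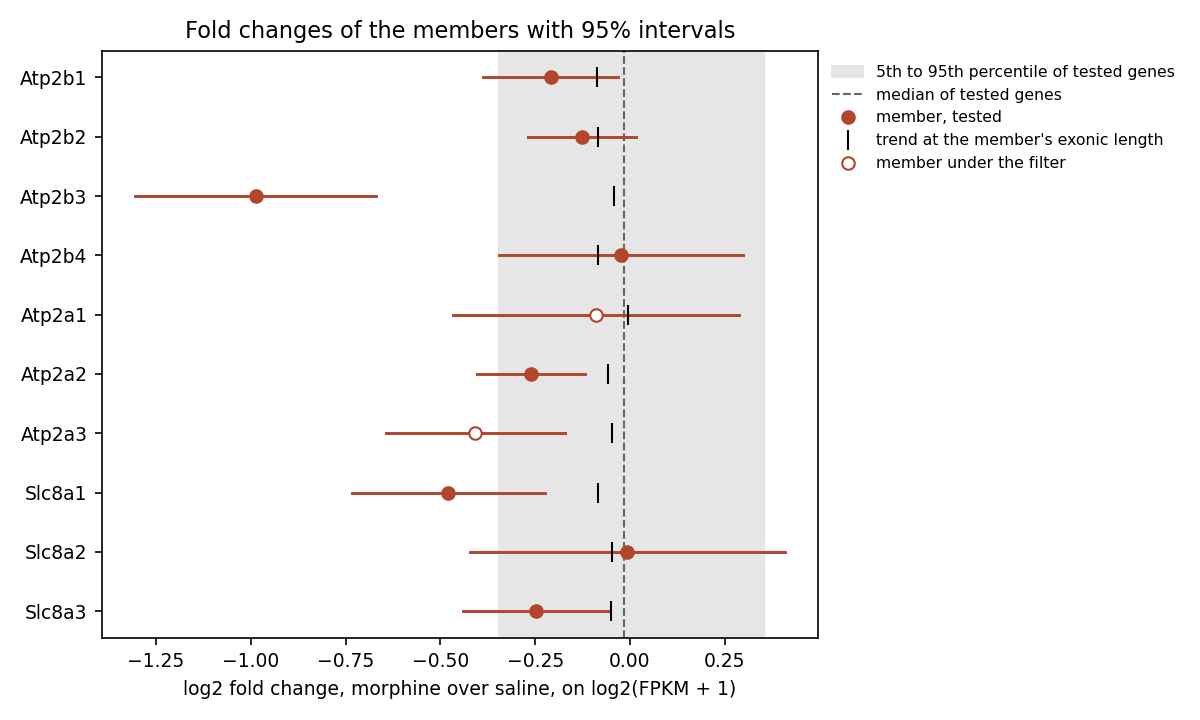
Log2 fold change of each member, morphine over saline, on log2(FPKM + 1), with its 95% interval. The grey band spans the 5th to 95th percentile of tested genes (-0.35 to 0.35), the dashed line is their median, the black ticks mark the length trend, and open circles are the 2 members under the filter. Atp2b3, at -0.99, Slc8a1, at -0.48, and Atp2a3, an open circle at -0.41, lie below the band.

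The call of Atp2b3 was also lost without the filter and without the intensity trend, both with a fold change of -0.99. It was made again without morphine 2 (-1.01), and it was lost without morphine 1 (-0.89), morphine 3 (-1.06), saline 1 (-1.02), saline 2 (-1.07) or saline 3 (-0.87). With the motor neuron markers as a covariate the fold change of Atp2b3 was -1.05. Under that fit 3 members were called, all lower, and Atp2b1 (-0.26) and Atp2a2 (-0.28) joined Atp2b3.

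**Figure D4:**
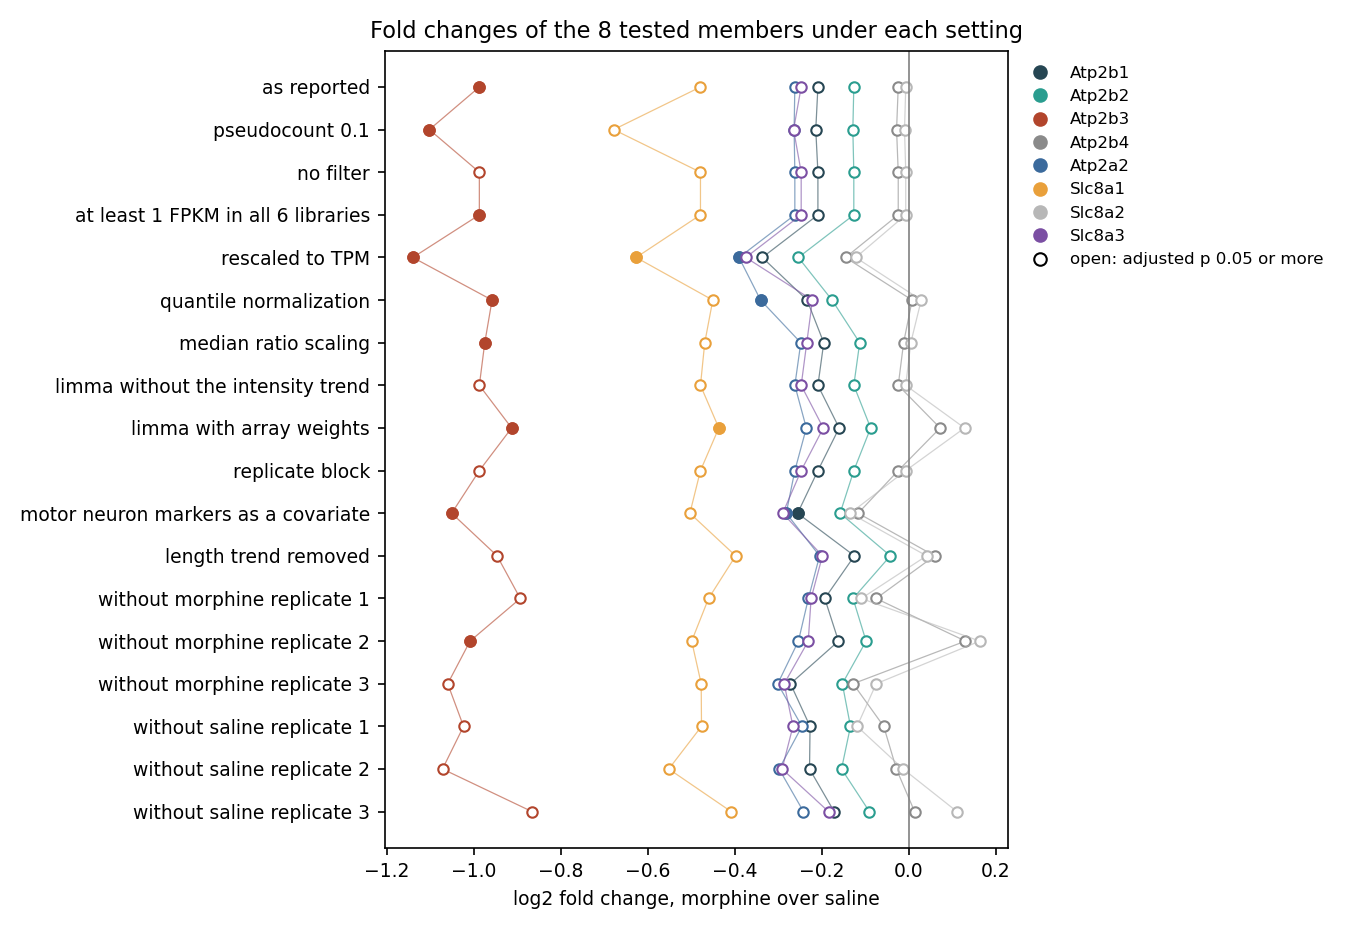
Log2 fold change of the 8 tested members (x axis) as reported and under 17 other settings (y axis), 1 colour per member, filled where the adjusted p was under 0.05. Atp2b3 stays between -1.14 and -0.87 and is filled in 9 of 18 rows, while Atp2b4 and Slc8a2 fall on both sides of 0.

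The partners of the pumps had a median log2 fold change of 0.00, with 8 of 15 tested members negative, beside 53.1% of all tested genes. Neuroplastin (Nptn) and basigin (Bsg) are membrane glycoproteins that form the second subunit of plasma membrane pumps, and calmodulin relieves their autoinhibition. Nptn was at 700, 588 and 713 FPKM in morphine, against 503, 530 and 523 FPKM in saline (log2 fold change 0.36, SE 0.08; limma adjusted p = 0.0667). Its groups did not overlap, with the higher values in morphine, while every plasma membrane pump but Atp2b4 was separated in the opposite direction. Calm2, a calmodulin gene, was at 1292 ± 71.7 FPKM in morphine and 1166 ± 44.6 in saline (SD, n = 3 each; limma adjusted p = 0.204). Canx, a calcium-binding chaperone of the ER that binds SERCA, was at 119 ± 4.09 FPKM in morphine and 139 ± 7.82 in saline (SD, n = 3 each; limma adjusted p = 0.0968). Of the 23 listed partners and regulators 21 were in the table, 15 were tested and 0 passed over all genes (6 had an unadjusted p under 0.05, a level that 22.3% of all tested genes met).

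Of the 18 tested genes for other calcium transporters 11 had a negative log2 fold change, the median was -0.03, and 0 were past limma's adjusted threshold and 4 at an unadjusted p under 0.05, a share near the 22.3% of all tested genes. Atp2c1, the calcium and manganese pump of the Golgi, was at 29.6, 34.97 and 33.8 FPKM in morphine, against 42.5, 41.6 and 42.0 FPKM in saline (log2 fold change -0.35, SE 0.07; limma adjusted p = 0.0607). Slc24a2, a potassium-dependent sodium-calcium exchanger of neurons, was at 34.9 ± 2.40 FPKM in morphine and 42.4 ± 1.24 in saline (SD, n = 3 each; adjusted p = 0.0771 by limma). Both were lower in each morphine library than in any saline library. Smdt1, the small regulator of the mitochondrial calcium uniporter, was at 103 ± 2.41 FPKM in morphine and 90.0 ± 7.54 in saline (limma adjusted p = 0.178). Tmbim6, a calcium leak protein of the ER, was at 203 ± 11.1 and 208 ± 13.5 FPKM (SD, n = 3 each; limma adjusted p = 0.805).

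Of the 17 tested genes that let calcium out of the store or refill it, 14 had a negative fold change, beside 53.1% of all tested genes, with a median log2 fold change of -0.14. None of the 17 passed limma's adjusted threshold, and 5 had an unadjusted p under 0.05, beside 22.3% of all tested genes. Stim1, the ER calcium sensor that opens store-operated channels, was at 14.0, 13.9 and 14.0 FPKM in morphine, against 16.5, 16.1 and 16.7 FPKM in saline (limma adjusted p = 0.0899). Ryr3, a ryanodine receptor release channel, was higher in each morphine library, at 4.19, 4.35 and 4.69 FPKM, than in saline, at 3.34, 2.94 and 3.25 FPKM (limma adjusted p = 0.0709). Other release channels did not share this. Ryr2 was at 7.25 ± 1.63 FPKM in morphine and 10.2 ± 0.948 in saline (limma adjusted p = 0.128). Itpr1 was at 5.13 ± 0.209 FPKM in morphine and 7.21 ± 1.11 in saline (limma adjusted p = 0.0936). Both were lower without overlap, while Itpr2 and Itpr3 overlapped. Saraf, which shuts store-operated entry, was at 161 ± 4.94 and 164 ± 2.54 FPKM, and Jph3, a junctophilin that ties the ER to the plasma membrane, at 54.4 ± 6.82 and 60.2 ± 7.45 FPKM (SD, n = 3 each, morphine and saline), with adjusted p-values of 0.804 and 0.511 by limma.

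The sodium pump makes the gradient that the exchangers spend. Of its 8 tested subunit and regulator genes 5 had a negative fold change, the median log2 fold change was -0.06, and 0 passed limma's adjusted threshold (1 had an unadjusted p under 0.05, where 22.3% of all tested genes did). Atp1b1, the beta subunit, was at 1127 ± 79.6 and 1166 ± 55.7 FPKM, and Fxyd6, a small regulator, at 20.7 ± 2.36 and 17.95 ± 1.83 FPKM (SD, n = 3 each, morphine and saline), with adjusted p-values of 0.693 and 0.321 by limma.

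**Figure D5:**
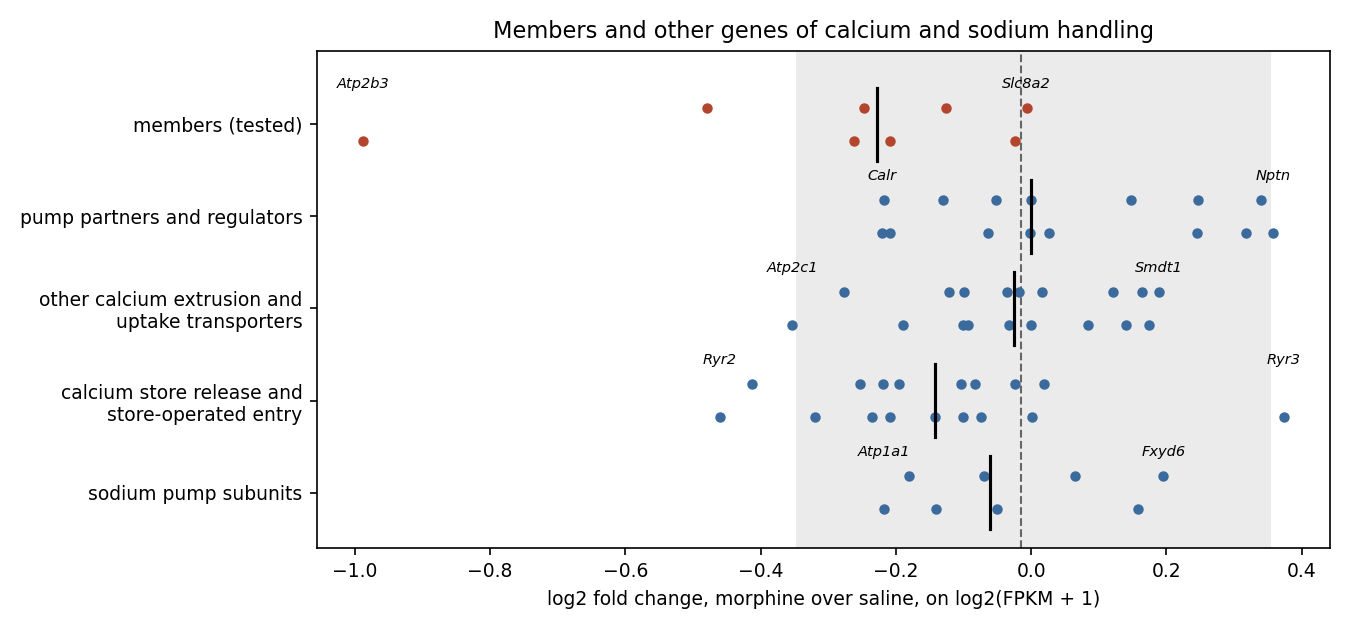
Log2 fold changes, morphine over saline, of the 8 tested members (red) and of the tested genes of 4 other lists (blue), with 1 point per gene, the list median as a black bar and the outermost gene of each list named above its point. The grey band and dashed line are the 5th to 95th percentile and the median of all tested genes. The medians are -0.23 for the members, 0.00 for the pump partners, -0.03 for the other transporters, -0.14 for store release and entry, and -0.06 for the sodium pump.

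The genes most like 4 of the members over the 6 libraries were found by Pearson's r of log2(FPKM + 1) among all tested genes, with both groups in it, so that a shared difference between groups is part of each value. Nearest to Atp2b3 were Rassf4, Hbb-bt, Arl10, Tenm3 and Mapre2 (r from 0.999 to 0.996). Rassf4 and Hbb-bt had log2 fold changes of -0.27 and -1.20. For Atp2b2 they were Klhdc10, Adar, Gm4875, Abr and Slc32a1, the vesicular transporter of inhibitory neurons (r from 0.995 to 0.992). For Atp2a2 they were D430041D05Rik, Disp2, Ap1b1, Nup133 and AC139941.1 (r from 0.997 to 0.996), and for Slc8a3 Rlim, Nckap1, Usp32, Ankrd42 and Prkci (r from 0.998 to 0.996).

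Other cell types that a cord dissection holds were compared through their markers, with sums given in FPKM. Motor and cholinergic markers summed to 50.2 to 259 in morphine and 63.7 to 265 in saline, and general neuronal markers to 4493 to 5388 and 4569 to 5655. Astrocyte markers summed to 1507 to 2034 in morphine and 1379 to 1832 in saline, oligodendrocyte markers to 16988 to 23067 and 14769 to 21618, and microglial markers to 144 to 174 and 154 to 166. In these 5 lists 0 members passed limma's adjusted threshold, where 1.51% of all tested genes did. At an unadjusted p under 0.05 there were 1, 3, 2, 0 and 1 of 9, 14, 8, 8 and 8 tested, beside 22.3% of all tested genes. Markers of ependyma and meninges summed to 21.4 to 48.3 in morphine and 34.4 to 47.5 in saline. Of the 6 tested 1 was called higher, Ccdc153 (limma adjusted p = 0.0488), where 1.51% of all tested genes were called in either direction. Ccdc153 was at 1.36, 1.25 and 1.83 FPKM in morphine, against 0.11, 0.53 and 0.08 FPKM in saline. It reached the level set for the test through its morphine values alone, so nothing is read from its call. Foxj1, another of these markers, overlapped (log2 fold change 0.03). Markers of dorsal root ganglion neurons stayed at 2.11 to 2.78 in morphine and 2.16 to 3.26 in saline, and 0 of 8 reached the level set for the test. Of the 11 marker sums, those of blood and of endothelium and mural cells were lower in every morphine library than in any saline library, that of skeletal muscle was higher, and the others overlapped. The tested muscle markers, Mylpf, Casq1 and Acta1, each had overlapping groups, so the muscle sum does not show a rise of the single markers.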

How the data were processed

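RNA of 6 spinal cord libraries (3 morphine, 3 saline) was measured by sequencing of total RNA with a stranded kit, per the labels. The authors deposited FPKM values with 2 decimals, and their processing notes name bcl2fastq 2.19.0, Trimmomatic, STAR, RSEM and mm10. The other versions, the annotation release and any use of strand are not given in those notes or the labels. Each column was matched to a sample by its description.

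FPKM values were used unscaled as log2(FPKM + 1). Genes that reached 1 FPKM in 3 or more of the 6 libraries were fitted in R 4.3.3 by limma 3.58.1 with its intensity trend, morphine minus saline, two-sided, with Benjamini-Hochberg adjustment over all tested genes and a threshold of 0.05. The 2 members under the filter came from the same fit without it. The fit was tested on simulated data. Shares are percentages of the summed FPKM of a family in each library. Lengths, coordinates and sequences came from GENCODE M21 on mm10. Depth is the value at which genes with a single transcript (300 to 1500 nt, no more than 6 fragments) come closest to whole fragments (77.6% to 80.4% of values within 0.05 of a whole number or the table's rounding, against 12.7% to 17.0% for evenly spread values). Python 3.11.15, pandas 2.3.3, NumPy 2.4.6, SciPy 1.17.1 and matplotlib 3.10.9 did the rest.

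The members and all gene lists were chosen with earlier results of these data known. Named genes are the 10 members, per pathway list the 2 tested genes with the smallest p and the 2 with the highest mean (none passed), the 5 genes nearest to Atp2b3 and to the most abundant member of each family, and up to 3 markers per cell type. Bsg, Ptprc, Itga2b, Pf4, Alas2, Myh4, Myl7, Ccdc153, Ryr2, Itpr1, Itpr2 and Itpr3 were named after their values were seen. Some genes and sequences that the rule covers are not reported here. Other settings were another pseudocount, 2 other filters, 3 scalings, 2 forms of limma, a replicate block, motor neuron markers as a covariate, removal of the length trend, and each library left out.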

Additional observations from a re-analysis of the deposited data

How the results depend on the processing

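Over 17 other settings the fold change of Atp2b3 was negative in all, from -1.14 to -0.87, and it was called in 8. It was not called without the filter (-0.99), without the intensity trend (-0.99), with the replicate block (-0.99), with the length trend removed (-0.95), or without 5 of the 6 libraries (leaving out 1 library gave -1.07 to -0.87). The other members that kept a negative fold change in all settings run were Atp2b1, Atp2b2, Atp2a2, Slc8a1, Slc8a3 and Atp2a3. For these members and Atp2b3 much of this was fixed in advance. The 2 other filters, the fit without the intensity trend and the replicate block cannot alter a fold change, only its call. Leaving out 1 library cannot turn the sign of a gene whose groups do not overlap. Atp2a2 was also called after rescaling to TPM, after quantile normalization and with the marker covariate, Slc8a1 after rescaling to TPM and with array weights, and Atp2b1 with the marker covariate. With a pseudocount of 0.1 the fold change of Atp2a3 was -0.94. The number of members called was 0 without the filter, without the trend, with the block and with the length trend removed, 2 after quantile normalization and with array weights, 3 after rescaling to TPM and with the covariate, and 0 to 1 with 1 library left out. The cause of these shifts was not tested.

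The number of genes called, 220, was 45 without the filter, 385 with 1 FPKM required in all 6 libraries, 954 after rescaling to TPM, 102 after quantile normalization, 540 after median ratio scaling, 36 without the trend, 1467 with array weights, 24 with the replicate block, 929 with the covariate and 34 with the length trend removed. It was 1 to 805 with 1 library left out, 805 being without morphine 2. Same-numbered libraries have the same run of numbers in their descriptions, and the labels do not say if they share more. The correlations of their deviations from the group means were -0.129, 0.161 and 0.295 for libraries 1, 2 and 3. The last was the highest of all pairs, while morphine 1 correlated best with saline 3 (0.109). With so few libraries these values cannot settle whether the libraries are paired.

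The sign of 3 members near 0 turned. Atp2b4 was at 0.0082 after quantile normalization, 0.073 with array weights, 0.0599 with the length trend removed, and -0.13 to 0.13 with 1 library left out. Slc8a2 was at 0.0291, 0.13 and 0.0414 under the same settings, 0.0051 after median ratio scaling, and -0.12 to 0.16 with 1 library left out. Atp2a1 was at -0.18 to 0.0354 with 1 library left out. Differences in shares, in percentage points, moved by more than 1 SD (the larger of the SDs of the groups) for 3 genes when FPKM was weighted by exonic length, to -0.931 for Atp2b1, -1.79 for Atp2b3 and -7.40 for Slc8a1. That of Slc8a3 turned sign by less than 1 SD, to 2.34, and was -3.30 to 0.633 with 1 library left out, while that of Slc8a2 was 2.38 to 7.22 and that of Atp2b1 -0.122 to 0.464. The replicate block is no check on the share differences, since the mean of the paired differences equals the difference of the group means. The length trend was not removed for Atp2a1 and Atp2a3, which were outside the tested genes, and the low depth of both limits their values.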
